A study of Mus musculus with 8 samples.

Results

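Murine leukemia virus and related endogenous retroviruses were described in small RNA of mouse sperm. They were chosen by name from a table of counts per annotated transposon copy: every copy named MuLV, RLTR4, RLTR3, RLTR6, MMERGLN or MMVL30, on the sense and the antisense strand. This gave 2929 of the 783825 transposon rows of the table, 1553 sense and 1376 antisense, under 11 element names. The table annotates 2910 of these rows as class ERV1 and the 19 rows of RLTR3_Mm as ERVK. The names were chosen because 4 of their sums had passed the threshold between ethanol and control libraries in an earlier analysis of the same counts. All differences between ethanol and control given for them are therefore descriptions, with no test.

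The series profiled sperm small RNA after alcohol exposure had ended, with 4 libraries labelled ethanol and 4 labelled control. The labels give the tissue (sperm), the treatment and the reagents (total RNA extracted with Trizol, Qiaseq libraries), which all 8 libraries share. The sources used here do not give strain, age, dose or length of exposure. Nothing in them says that a group's libraries are from different animals, so every spread below is that between these libraries and may be technical. The deposited totals were 6849448, 3481865, 6975180 and 5948251 counts in ethanol libraries 1 to 4, and 4529439, 4365887, 4503011 and 4921827 in control libraries 1 to 4.

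Endogenous retroviruses are former infections of the germ line. A complete copy has 2 long terminal repeats (LTRs), which hold the promoter and the polyadenylation signal, around an internal part that encodes the gag, pol and env proteins. Many copies are only a solitary LTR, left after recombination. Murine leukemia viruses are gammaretroviruses, and mouse strains carry differing sets of young proviruses of this kind, in the ecotropic, xenotropic and polytropic classes named after the cells their envelopes can enter. In the annotation used by the table, MuLV-int and RLTR4_MM-int are internal parts of these proviruses and RLTR4_Mm is their LTR. MMVL30-int is the internal part of VL30 elements, which have lost their protein-coding capacity and can be packaged into murine leukemia virus particles, and RLTR6_Mm is a VL30 LTR. MMERGLN-int belongs to the GLN group, named after the glutamine tRNA that primes its reverse transcription. In germ cells and embryos such elements are held silent by DNA methylation, by histone methylation recruited through KRAB zinc finger proteins and TRIM28, and in the male germ line by piRNAs.

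The libraries held 147982 sense and 11351 antisense counts on these elements. Levels are given as CPM, counts set to a library size scaled by TMM (trimmed mean of M values). Sense counts of all 11 names together reached 3209, 7716, 2754 and 7973 CPM in ethanol libraries 1 to 4, against 1135, 2143, 1944 and 2321 CPM in control libraries 1 to 4. The groups did not overlap, and ethanol libraries 2 and 4 stood above all others. As a share of the deposited counts, the sense total was 0.589 ± 0.395% in ethanol libraries and 0.157 ± 0.0418% in control libraries (SD, n = 4 each). Antisense counts reached 243, 1220, 175 and 139 CPM in ethanol libraries, against 151, 143, 114 and 161 CPM in control libraries. Here the groups overlapped, and ethanol library 2 alone lay far above the rest. In bulk RNA, fewer cells of a type and less RNA per cell cannot be told apart.

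**Figure D1:**
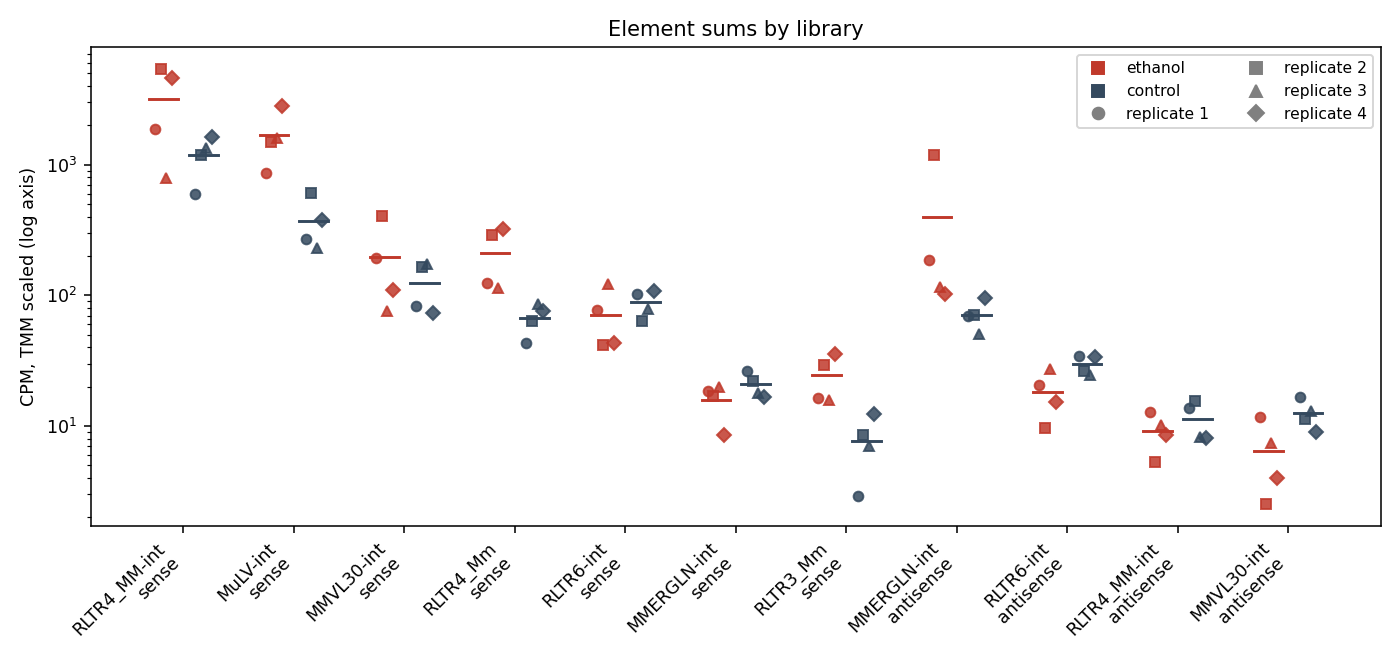
CPM on a log axis of the named sums in each library, ethanol left of control, with a bar at the group mean. Sense MuLV-int, RLTR4_Mm and RLTR3_Mm and antisense MMERGLN-int have all ethanol libraries above all control libraries, while the other sums overlap.

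Of the 9 sense sums with enough counts to be fitted, 3 were called higher and 0 lower in ethanol libraries (edgeR's quasi-likelihood test, Benjamini-Hochberg adjustment over all features, threshold 0.05), beside 11.9% of all 13515 features called higher and 1.75% called lower. Of the 6 antisense sums fitted, 1 was called higher and 0 lower. At an unadjusted p under 0.05, 2 antisense and 0 sense sums were lower. These calls chose the names and nothing is read from their number. The 3 sense sums were all that were called higher among 524 sense transposon names (0.573%), and the antisense sum was the single one among 552 (0.181%). The median log2 fold change was 0.87 over the 9 sense sums and -0.50 over the 6 antisense sums, beside -0.01 over all features, -0.53 over sense and -0.47 over antisense transposon names, and 0.88 over mRNA exons. All ethanol libraries lay above all control libraries in 4 of the 15 sums, beside 14.4% of all features. The other 7 sums had too few counts for the fit.

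Among internal parts, sense MuLV-int had 865, 1489, 1604 and 2829 CPM in ethanol libraries 1 to 4, against 272, 607, 230 and 378 CPM in control libraries 1 to 4. Every ethanol library lay above every control library, with ethanol library 4 and control library 2 highest in their groups. The means were 1697 ± 822 CPM in ethanol and 372 ± 169 CPM in control libraries (SD, n = 4 each), and the fitted log2 fold change was 2.19 ± 0.51 (SE). This sum was one of those called. Sense RLTR4_MM-int, which held more counts than any other name, had 1891, 5402, 787 and 4613 CPM in ethanol libraries, against 593, 1193, 1334 and 1645 CPM in control libraries. The groups overlapped: ethanol libraries 2 and 4 were highest of all, and ethanol library 3 lay below 3 of the control libraries. Its means were 3174 ± 2189 CPM in ethanol and 1191 ± 441 CPM in control libraries, and its log2 fold change of 1.41 ± 0.58 was not called.

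The LTR of the same proviruses, RLTR4_Mm, had 124, 291, 114 and 321 sense CPM in ethanol libraries, against 43.4, 63.4, 85.6 and 76.5 sense CPM in control libraries. All ethanol libraries lay above all control libraries, and again libraries 2 and 4 of the ethanol group were highest. The means were 213 ± 109 CPM in ethanol and 67.2 ± 18.3 CPM in control libraries, the log2 fold change was 1.66 ± 0.47, and the sum was called. Sense RLTR3_Mm, the LTR annotated as ERVK, had 16.4, 29.5, 15.7 and 35.8 CPM in ethanol libraries, against 2.88, 8.53, 6.99 and 12.2 CPM in control libraries. It followed the same order of libraries within the ethanol group as RLTR4_Mm in its highest 2, its groups did not overlap, and its log2 fold change of 1.67 ± 0.45 was called. The summed counts of RLTR3_Mm were small, 542 in ethanol and 116 in control libraries, and a single copy, RLTR3_Mm_copy16, held 95.9% of those in ethanol and 86.2% of those in control libraries.

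The VL30 names lay closer between the groups. Sense MMVL30-int had 194, 405, 76.2 and 110 CPM in ethanol libraries, against 82.7, 164, 174 and 73.2 CPM in control libraries. The groups overlapped, with ethanol library 2 highest and ethanol library 3 near the lowest control libraries. The log2 fold change was 0.67 ± 0.54, and it was -0.04 without ethanol library 2. The VL30 LTR RLTR6_Mm, at 19.8 ± 13.6 CPM in ethanol and 10.8 ± 4.72 CPM in control libraries, overlapped too, with a log2 fold change of 0.87 ± 0.47.

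Sense RLTR6-int had 77.1, 41.9, 121 and 43.2 CPM in ethanol libraries, against 103, 63.1, 78.9 and 108 CPM in control libraries. Its order of libraries was unlike that of RLTR4_Mm: ethanol library 3 was highest and ethanol libraries 2 and 4 lowest of all 8, and the log2 fold change was -0.32 ± 0.44. Sense MMERGLN-int had 18.4, 16.8, 19.99 and 8.47 CPM in ethanol libraries, against 26.2, 22.2, 17.97 and 16.7 CPM in control libraries, which overlapped, with a log2 fold change of -0.38 ± 0.36. The LTR RLTR6B_Mm, with 89 sense counts in all libraries, had a log2 fold change of -0.42 ± 0.54. MMERGLN_LTR and RLTR6C_Mm had 27 and 32 sense counts in all and were not fitted.

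Taking MuLV-int, RLTR4_MM-int and RLTR4_Mm as one group, sense levels were 2880, 7182, 2505 and 7763 CPM in ethanol libraries, against 908, 1864, 1649 and 2099 CPM in control libraries, with no overlap. The other 8 names together had 329, 533, 250 and 210 sense CPM in ethanol libraries, against 227, 279, 295 and 222 CPM in control libraries, and these overlapped. The ratio of group means was 3.12 for the leukemia virus names and 1.29 for the rest. Among the rest the ratios of single names ran from 0.590 for RLTR6C_Mm to 3.18 for RLTR3_Mm, which was called and did not overlap. The difference between the ratios was not tested, since the names were chosen on this contrast.

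The division of sense counts between internal parts and LTRs hardly varied. Internal names held 95.1 ± 0.321% of the sense counts in ethanol libraries and 95.1 ± 0.663% in control libraries, with a lowest value of 94.4% and a highest of 95.7% over all 8. RLTR4_Mm alone held 3.95 ± 0.156% in ethanol and 3.62 ± 0.633% in control libraries. The division among internal names varied more: MuLV-int held 35.0 ± 16.8% in ethanol and 20.1 ± 7.44% in control libraries, and RLTR4_MM-int held 53.8 ± 17.7% in ethanol and 61.8 ± 9.27% in control libraries. Element lengths were not used, so these are shares of counts and not levels per base.

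On the antisense strand MMERGLN-int stood out. It had 187, 1197, 116 and 102 CPM in ethanol libraries, against 69.1, 70.6, 50.4 and 94.6 CPM in control libraries. The groups did not overlap, but ethanol library 4 was close to control library 4 and ethanol library 2 lay far above all others. The means were 400 ± 532 CPM in ethanol and 71.2 ± 18.1 CPM in control libraries, and the log2 fold change of 2.49 ± 0.72 was called. Without ethanol library 2 the fold change was 0.86 and was no longer called.

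The other fitted antisense sums overlapped between the groups. Antisense RLTR6-int had 20.6, 9.68, 27.2 and 15.2 CPM in ethanol libraries, against 34.0, 26.4, 24.5 and 33.7 CPM in control libraries (log2 fold change -0.70 ± 0.38). Antisense RLTR4_MM-int had 12.8, 5.26, 10.2 and 8.47 CPM in ethanol libraries, against 13.6, 15.5, 8.24 and 8.07 CPM in control libraries (-0.30 ± 0.37). Antisense MMVL30-int had 11.7, 2.53, 7.36 and 3.98 CPM in ethanol libraries, against 16.7, 11.4, 12.98 and 8.90 CPM in control libraries (-0.95 ± 0.44). In each of these ethanol library 2, the highest library for sense RLTR4_MM-int, was the lowest of all 8. Antisense MuLV-int and RLTR4_Mm had log2 fold changes of -1.03 ± 0.40 and -0.28 ± 0.44, from 198 and 101 counts in all. None of these 5 was called.

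The strand balance was tested within libraries, with no comparison of ethanol and control libraries. The ratios still contain the sums that chose the names: sense MuLV-int, RLTR4_Mm and RLTR3_Mm and antisense MMERGLN-int. For each of these the chosen strand is also the more abundant one. In control libraries alone their log2 sense to antisense ratios averaged 5.53, 4.44, 2.48 and -1.76. The test also takes the libraries as independent, which the labels do not establish. The log2 ratio of sense to antisense counts of all names together averaged 3.87 ± 0.95 over the 8 libraries (SD), and sense counts exceeded antisense counts in 8 of 8 (two-sided exact sign-flip permutation test over libraries, p = 0.0078125, the smallest this design allows). Sense counts were 86.3% to 98.3% of the total. For 8 names with at least 10 counts in every library the ratio was tested singly, with p-values adjusted over these names. The leukemia virus names were the most one-sided, at 7.19 ± 2.0 for MuLV-int, 7.39 ± 1.51 for RLTR4_MM-int and 5.40 ± 1.38 for RLTR4_Mm. The VL30 internal part MMVL30-int, at 4.04 ± 1.49, its LTR RLTR6_Mm, at 3.30 ± 1.77, and RLTR3_Mm, at 3.18 ± 1.14, followed. RLTR6-int was least one-sided and varied little, at 1.73 ± 0.30. Sense counts of each of these 7 names exceeded antisense counts in 8 of 8 libraries (exact sign-flip permutation test, adjusted p = 0.0078125 each).

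MMERGLN-int had the opposite balance. Its log2 ratio of sense to antisense counts averaged -2.83 ± 1.57, with more antisense than sense counts in 8 of 8 libraries (exact sign-flip permutation test, adjusted p = 0.0078125). This balance rested on a single antisense copy, MMERGLN-int_copy269: without it the ratio averaged -0.06 ± 0.63, with antisense counts higher in 4 of 8 libraries (exact sign-flip permutation test, p = 0.789). The copy was left out after its values were seen, and leaving out antisense counts alone can only move the ratio toward sense. Nothing is read from that p-value. With all copies, sense counts made up 8.18 ± 5.47% of the MMERGLN-int total in ethanol libraries and 23.2 ± 5.64% in control libraries. Within the 4 libraries of either group alone the smallest p this exact test can give is 1 in 8, a value that every name reached in both groups. The ratio of MuLV-int was 7.64, 9.88, 8.17 and 9.71 in ethanol libraries, against 4.87, 6.77, 4.92 and 5.57 in control libraries. That ratio contains the sense sum that chose the name, so it was not compared by a test.

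**Figure D2:**
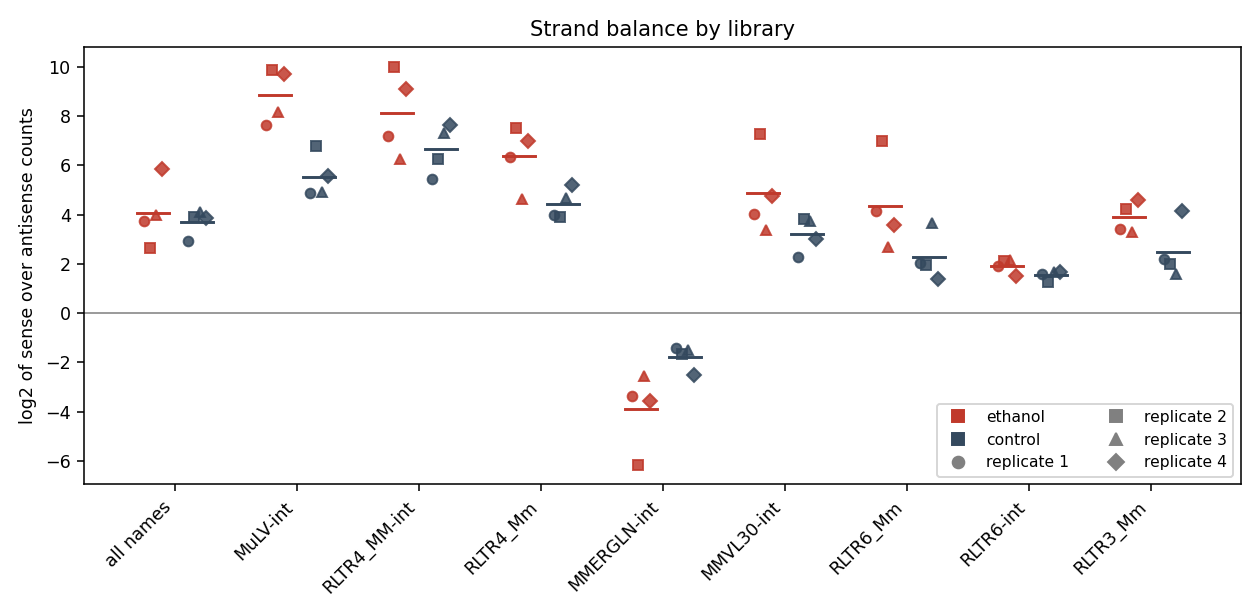
Log2 ratio of sense to antisense counts in each library, ethanol left of control, with a bar at the group mean and a line at equal counts. MMERGLN-int lies below the line in all 8 libraries, with an average of -2.83 (-0.06 without MMERGLN-int_copy269), and the other names lie above it.

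The IAP, ETn and MERVL elements, other young mouse retroviral groups, give the setting. Summed sense IAP counts lay between 150 and 317 CPM in ethanol libraries and between 253 and 389 CPM in control libraries, and antisense IAP counts between 242 and 1170 CPM in ethanol and between 560 and 1082 CPM in control libraries. IAP and MERVL counts were thus higher on the antisense strand in all 8 libraries, and those of ETn on the sense strand. The log2 ratios of group means, ethanol over control, were -0.42, -0.39 and -0.64 on the sense strand for IAP, ETn and MERVL, beside 1.52 for the leukemia virus and related names. All of these 3 groups overlapped between ethanol and control libraries. Within class ERV1, which has 137 names, the 10 ERV1 names described here held 68.0 ± 23.3% of the sense counts in ethanol and 40.5 ± 10.2% in control libraries. The groups overlapped, with ethanol library 3 at 40.6% and control library 2 at 51.3%, and these shares contain sums that chose the names.

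Counts of a name came from few annotated copies. Of the listed rows 2022 had at least 1 count, but the 5 leading copies of sense MuLV-int held 92.8% of its counts, those of RLTR4_MM-int 53.1% and those of RLTR4_Mm 39.98%. The sources used here do not say how reads that match several copies were counted, so counts of near-identical copies are uncertain and may share reads. Of 64 sense RLTR4_Mm copies with 10 counts or more, 29 had exactly the counts of another copy in all 8 libraries, which left 47 distinct rows. With identical copies counted once, RLTR4_Mm still had 80.04, 178, 68.5 and 180 CPM in ethanol libraries, against 26.4, 34.4, 47.9 and 46.5 CPM in control libraries.

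When copies were fitted singly, 10 of 78 fitted copies were called higher and 0 lower in ethanol libraries (edgeR), beside 6.84% of all 13911 features called higher and 1.01% called lower in that fit. At an unadjusted p under 0.05, 24 of the copies were higher and 0 lower. The median log2 fold change was 1.13 over these copies and 0.02 over all features. Nothing is read from these counts, as the copies carry the sums that chose the names. All ethanol libraries lay above all control libraries for 15 of the 78, beside 13.5% of all features. The 78 copies held 78.9% of the counts, and 33 of them were at 0 in at least 1 library. All 12 fitted RLTR4_Mm copies and 41 of 43 RLTR4_MM-int copies had a positive log2 fold change, against 2 of 7 sense RLTR6-int copies. Nothing is read from these signs either, for the same reason, and no share of positive changes over all features was taken. Several of these copies had identical counts, so they are not replicates of each other. With identical copies counted once, 9 of 72 copies were called higher, beside 6.97% of all features.

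The 10 called copies were 6 of RLTR4_Mm, RLTR4_MM-int_copy187, RLTR4_MM-int_copy61, MuLV-int_copy197 and, on the antisense strand, MMERGLN-int_copy269. RLTR4_Mm_copy128 had 43, 114, 28 and 110 counts in ethanol libraries, against 5, 5, 8 and 5 counts in control libraries (log2 fold change 3.16 ± 0.56). RLTR4_Mm_copy194 had the same counts in 7 libraries and 14 in control library 3. RLTR4_Mm_copy125 and RLTR4_Mm_copy191 shared all their counts, 58, 146, 45 and 150 in ethanol libraries, against 13, 19, 22 and 21 in control libraries (1.90 ± 0.49). Each of these LTR copies had its ethanol libraries above its control libraries, with libraries 2 and 4 of the ethanol group high. RLTR4_Mm_copy30 had 41, 64, 37 and 44 counts in ethanol libraries, against 9, 5, 2 and 13 counts in control libraries (2.13 ± 0.50). RLTR4_Mm_copy31 had 41, 34, 37 and 44 counts in ethanol libraries, against 9, 3, 2 and 13 counts in control libraries (1.94 ± 0.49). These copies had near-even counts within the ethanol group and matched each other in 6 of 8 libraries.

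RLTR4_MM-int_copy187 had 71, 70, 243 and 54 counts in ethanol libraries, against 4, 18, 5 and 4 counts in control libraries (log2 fold change 3.27 ± 0.65). Its highest value was in ethanol library 3, where the sum of the name was lowest of the ethanol group. MuLV-int_copy197 had 48, 1761, 740 and 298 counts in ethanol libraries, against 10, 44, 31 and 75 counts in control libraries (3.74 ± 0.97), and its groups overlapped. MMERGLN-int_copy269 on the antisense strand had 1104, 5654, 522 and 510 counts in ethanol libraries, against 120, 192, 140 and 253 counts in control libraries (3.05 ± 0.82). This copy held 95.4% of the antisense MMERGLN-int counts in ethanol and 65.3% in control libraries. Without it the antisense sum was 24.7, 7.15, 17.4 and 13.8 CPM in ethanol libraries, against 37.7, 20.9, 15.5 and 24.2 CPM in control libraries, so the remaining copies overlapped and had the lower mean in ethanol libraries.

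The copies that held most counts differed from library to library. MuLV-int_copy203 had 46, 54, 3764 and 14867 counts in ethanol libraries, against 9, 2205, 194 and 10 counts in control libraries. It was abundant in ethanol libraries 3 and 4 and in control library 2 and close to absent in ethanol libraries 1 and 2 and control libraries 1 and 4. MuLV-int_copy205 had 5297, 3708, 797 and 1079 counts in ethanol libraries, against 905, 11, 372 and 935 counts in control libraries. One or the other led in every library: MuLV-int_copy203 held 90.9% of the sense MuLV-int counts of ethanol library 4 (95% exact binomial interval 90.4% to 91.3%) and 93.9% in control library 2 (92.8% to 94.8%), where MuLV-int_copy205 held 6.60% and 0.468%. MuLV-int_copy205 held 5297 of 5887 counts in ethanol library 1 (89.2% to 90.7%) and 905 of 1040 in control library 1, where MuLV-int_copy203 held 0.781% and 0.865%. Such intervals cover counting error only.

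Neither copy was called alone, with log2 fold changes of 2.35 ± 1.99 for MuLV-int_copy203 and 1.70 ± 0.93 for MuLV-int_copy205. Together they had 785, 792, 860 and 2758 CPM in ethanol libraries, against 239, 573, 141 and 263 CPM in control libraries, with no overlap. The remaining MuLV-int copies had 79.9, 697, 744 and 71.1 CPM in ethanol libraries, against 33.0, 34.4, 88.4 and 115 CPM in control libraries, and overlapped. So the groups were apart in the sum of a pair of copies that were each spread over both groups.

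**Figure D3:**
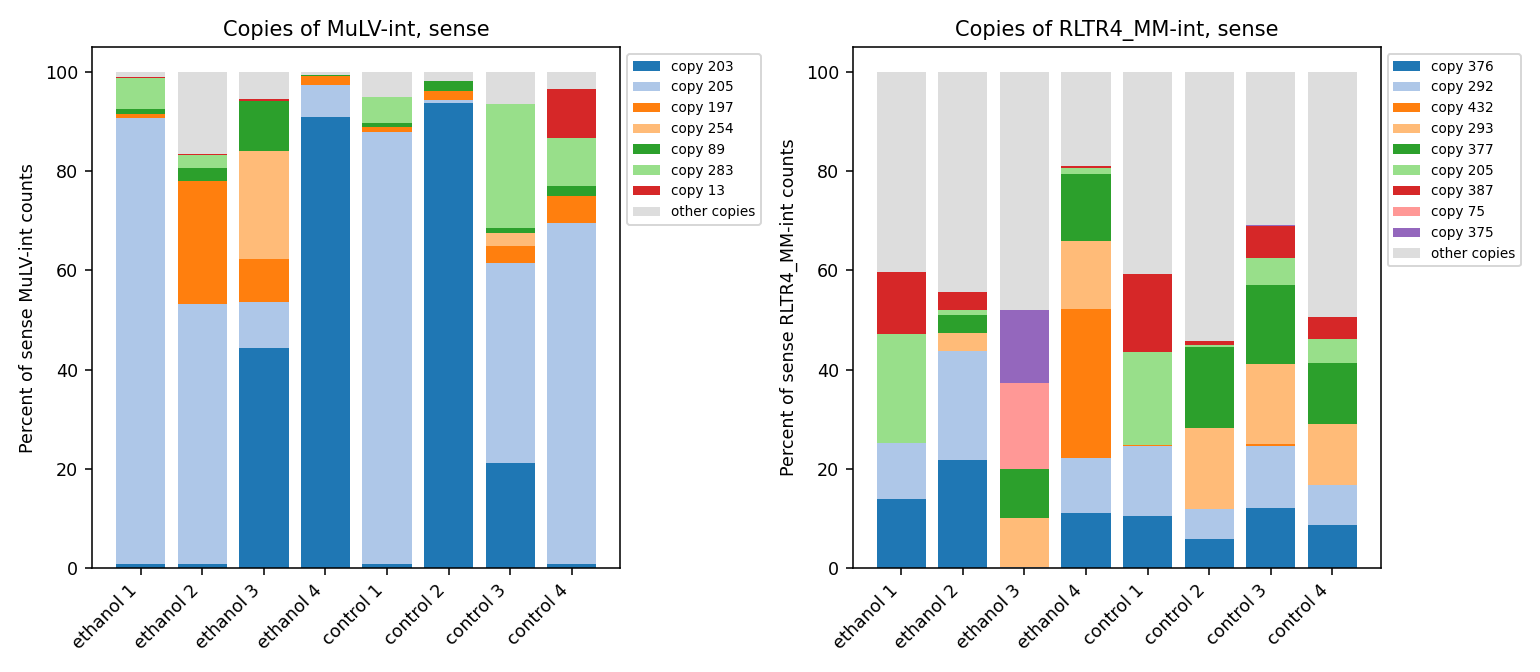
Percent of sense counts held by single annotated copies of MuLV-int (left) and RLTR4_MM-int (right) in each library, ethanol left of control, with all other copies in grey; the copies shown are the leading pair of each library. MuLV-int_copy203 or MuLV-int_copy205 is the leading copy of MuLV-int in every library, and ethanol library 3 has leading RLTR4_MM-int copies that hold few or no counts in the other libraries.

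RLTR4_MM-int showed the same unevenness over more copies. RLTR4_MM-int_copy376 had 1792, 5594, 3 and 2934 counts in ethanol libraries, against 239, 271, 641 and 513 counts in control libraries. RLTR4_MM-int_copy292 followed it closely, with 1453, 5628, 8 and 2969 counts in ethanol libraries, against 319, 274, 675 and 479 counts in control libraries. In CPM, RLTR4_MM-int_copy292 had 220, 1236, 1.53 and 531 in ethanol libraries, against 85.5, 75.8, 173 and 135 in control libraries. For both copies, ethanol libraries 2 and 4 lay far above every control library, ethanol library 1 less so, and ethanol library 3 was close to 0. The log2 fold changes were 2.18 ± 1.18 and 2.08 ± 1.08, and neither was called. Of 59 RLTR4_MM-int copies with at least 100 counts, 23 had at most 3 counts in ethanol library 3 while the median of the other libraries was 20 or more. The same held for 15 copies in control library 1, for 13 in control library 2, for 5 in ethanol library 1 and for 0 or 1 in each other library. Ethanol library 3 had 4175 RLTR4_MM-int counts in all, and its leading copy there, RLTR4_MM-int_copy75, singled out after its values were seen, had 722 counts in that library and at most 7 in any other.

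Among 80 copies with at least 200 counts over all libraries, 10 had over 90% of their summed CPM in a single library. All 10 were sense copies, 9 of them with that library in the ethanol group: 4 in library 2, 4 in library 3 and 1 in library 4. A copy can pass the filter on total counts through a single library. Most counts of the elements were sense, and most sense counts were in ethanol libraries. No share over other transposon copies was taken, so nothing is read from this division. RLTR4_MM-int_copy432 had 8052 of its 8086 counts in ethanol library 4, RLTR4_MM-int_copy137 had 5354 of 5669 in ethanol library 2, and MuLV-int_copy254 had 1845 of 1870 in ethanol library 3. The exception was RLTR4_MM-int_copy382, with 733 of 752 counts in control library 2. These copies were singled out after their values were seen. RLTR4_MM-int_copy293 and RLTR4_MM-int_copy377 had identical counts in every library, 7323 each, with 0 in ethanol library 1 and control library 1 and 3630 in ethanol library 4.

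The likeness of 2 libraries in their use of copies was described by the summed overlap of their copy shares, which is 100% for equal shares. For sense MuLV-int the median overlap was 17.4% among the 6 pairs of ethanol libraries, 37.3% among the 6 control pairs and 42.9% among the 16 pairs between the groups. For RLTR4_MM-int these medians were 31.4%, 48.7% and 45.04%. The LTR RLTR4_Mm was more even, at 70.5% among ethanol pairs, 61.0% among control pairs and 65.2% between the groups. By these medians the ethanol libraries were less alike in copies of MuLV-int and RLTR4_MM-int than libraries of different groups were. The same held for control libraries in MuLV-int. For MuLV-int the pairs ranged from 8.55% to 58.2% among ethanol libraries and from 3.83% to 95.3% between the groups. Its ethanol libraries 1 and 2 shared 58.2%, and 3 and 4 shared 53.1%, pairs whose sample codes share a style. The other ethanol pairs shared 8.55% to 22.1%. Ethanol library 1 shared 95.3% with control library 1, and ethanol library 4 shared 93.6% with control library 2. For RLTR4_MM-int, ethanol libraries 1 and 2 shared 47.3%, but 3 and 4 shared 26.7%, less than 1 and 4, at 36.04%. No test was made, including of a link between sample codes and copy use. For sense MMVL30-int the medians were 31.0%, 29.4% and 32.6%, for RLTR6-int 50.8%, 43.3% and 48.7%, and for MMERGLN-int 13.6%, 23.0% and 15.6%. MMVL30-int_copy214, singled out after its values were seen, led in ethanol libraries 1, 3 and 4 and in control library 4, with 467, 115, 42 and 119 counts in ethanol libraries, against 10, 80, 69 and 56 counts in control libraries.

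Genes that act on such viruses were read from lists chosen for the pathway, with edgeR p-values adjusted over all 13515 features and 23.8% of mRNA exon features called higher. Of the receptors through which murine leukemia viruses and related gammaretroviruses enter cells, 2 of 4 were fitted and 0 were called in either direction. At an unadjusted p under 0.05, 1 was higher. The DESeq2 Wald test called 1, beside 17.2% of all features called higher by that test. No share over all features was taken at an unadjusted p, so nothing is read from such counts in these lists. Slc7a1, the receptor of ecotropic viruses, had 16.6, 35.4, 12.1 and 25.9 CPM in ethanol libraries, against 7.33, 12.7, 11.98 and 10.01 CPM in control libraries (log2 fold change 1.09 ± 0.40, edgeR adjusted p = 0.0740). Xpr1, the receptor of xenotropic and polytropic viruses, had 11.9, 11.6, 16.4 and 10.5 CPM in ethanol libraries, against 8.37, 8.53, 11.7 and 15.9 CPM in control libraries (0.18 ± 0.34).

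Of 7 fitted genes that restrict or sense retroviruses 0 were called in either direction by edgeR, with 6 higher and 0 lower at an unadjusted p under 0.05. The DESeq2 Wald test called 4, beside 17.2% of all features called higher by that test. All 7 log2 fold changes were positive, between 0.89 and 1.87, beside a median of 0.88 over mRNA exons. Zc3hav1, a zinc finger protein that binds and degrades viral RNA, had 9.25, 25.5, 3.58 and 10.4 CPM in ethanol libraries, against 1.83, 3.62, 4.99 and 5.56 CPM in control libraries. Apobec3, a cytidine deaminase packaged into virions, had 6.02, 24.2, 3.02 and 8.99 CPM in ethanol libraries, against 1.05, 4.65, 4.99 and 2.78 CPM in control libraries. Both were highest in ethanol library 2, and both had overlapping groups.

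Of 17 fitted genes that silence endogenous retroviruses 4 were called higher and 0 lower, a share near the 23.8% of mRNA exon features, and 10 were higher and 0 lower at an unadjusted p under 0.05. All 17 log2 fold changes were positive, with a median of 1.0. Cbx1, a heterochromatin protein that binds methylated histone H3, had 4.55, 9.05, 3.21 and 3.63 CPM in ethanol libraries, against 1.31, 1.03, 1.498 and 2.23 CPM in control libraries (log2 fold change 1.73 ± 0.45, edgeR adjusted p = 0.0304). H3f3b, a gene for histone H3.3, had 28.1, 77.4, 15.3 and 23.0 CPM in ethanol libraries, against 8.11, 9.57, 11.5 and 11.7 CPM in control libraries (1.81 ± 0.48, edgeR adjusted p = 0.0312). Atrx, a remodeller that deposits H3.3 at repeats, had 18.4, 52.8, 9.81 and 18.5 CPM in ethanol libraries, against 7.85, 6.98, 10.2 and 6.40 CPM in control libraries (1.65 ± 0.48, edgeR adjusted p = 0.0375). H3f3a, the other H3.3 gene named, had 18.7, 55.1, 14.7 and 21.6 CPM in ethanol libraries, against 9.68, 12.2, 8.74 and 9.74 CPM in control libraries (1.44 ± 0.43, edgeR adjusted p = 0.0422). Each was highest in ethanol library 2, and Atrx alone overlapped between the groups. Without ethanol library 2, 1 of 17 was called, beside 6.9% of all features called higher, and without ethanol library 4, 2 of 18, beside 6.81%. Without any 1 control library 0 were called, beside at most 0.0202% of all features called higher.

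Of 8 fitted piRNA pathway genes 0 were called by edgeR, 0 by the DESeq2 Wald test and 0 at an unadjusted p under 0.05, and 4 had a positive log2 fold change. Piwil2, a piRNA-binding protein of the male germ line, had 15.9, 5.47, 26.6 and 11.2 CPM in ethanol libraries, against 19.6, 11.6, 15.2 and 27.3 CPM in control libraries (log2 fold change -0.31 ± 0.45). Tdrd6, a tudor protein of the chromatoid body, had 4.41, 4.21, 11.1 and 2.59 CPM in ethanol libraries, against 5.23, 1.81, 12.2 and 6.68 CPM in control libraries (-0.22 ± 0.53). Both were highest in ethanol library 3 within their ethanol group, unlike the leukemia virus sums.

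Markers of other cells and the share of mRNA moved with the groups. Transcripts of spermatids and sperm were present in every library, all 10 of them fitted, with a summed level of 212 to 570 CPM in ethanol and 538 to 689 CPM in control libraries; 0 were called (edgeR), with 2 lower at an unadjusted p under 0.05. All 7 general epithelial markers were called higher, with a summed level of 125 to 835 CPM in ethanol and 49.5 to 93.2 CPM in control libraries. Of 12 epididymal epithelial markers 2 were fitted and both were called higher, with sums of 826 to 11172 CPM in ethanol and 382 to 640 CPM in control libraries, of which Crisp1 held most. The defining lipocalins Lcn5, Lcn8 and Lcn9 had at most 14 counts in any library. Of 7 fitted blood and immune markers Cd52, which the epididymis also makes, was called higher, and the hemoglobin genes Hba-a1 and Hba-a2 were called lower. No listed marker was at 0 in all libraries.

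mRNA exons held 8.69%, 29.3%, 6.94% and 9.73% of the deposited counts in ethanol libraries 1 to 4, against 5.08%, 5.81%, 5.58% and 5.51% in control libraries. Epithelial markers and mRNA share were highest in ethanol library 2 and lowest of the ethanol group in library 3. Sense RLTR4_MM-int and MMVL30-int had the same highest and lowest ethanol libraries. Antisense MMERGLN-int was highest in library 2 but lowest of the ethanol group in library 4. Sense RLTR4_Mm and RLTR3_Mm were highest in library 4 and lowest of that group in library 3. Sense MuLV-int was highest in library 4, at 2829 CPM, and lowest of that group in library 1, at 865 CPM. Ethanol library 4, with the highest sense total of the elements, had epithelial markers at 240.2 CPM and a mRNA share close to that of library 1. Ethanol library 2 stood apart over all features, with correlations of log2 CPM of 0.686 to 0.820 to other ethanol libraries, while pairs among those had 0.896 to 0.924 and control pairs 0.903 to 0.936. The part of the other cells' RNA, of the mRNA share and of ethanol library 2 in the differences given for the elements was not tested. The tRNAs that prime reverse transcription in retroviruses of this kind had lower means in ethanol libraries, with overlapping groups. Glutamine tRNA counts were 2286 ± 835 CPM in ethanol and 3406 ± 907 CPM in control libraries. Ethanol library 3, at 3184 CPM, lay above control libraries 3 and 4, at 2922 and 2425 CPM. Proline tRNA counts, of the tRNA used by leukemia viruses, were 897 ± 346 CPM in ethanol and 1417 ± 193 CPM in control libraries. Here ethanol library 3 had 1273 CPM and control library 4 had 1258 CPM. Ethanol library 2 was lowest for both tRNAs, at 1163 and 448 CPM, and no test was made.

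**Figure D4:**
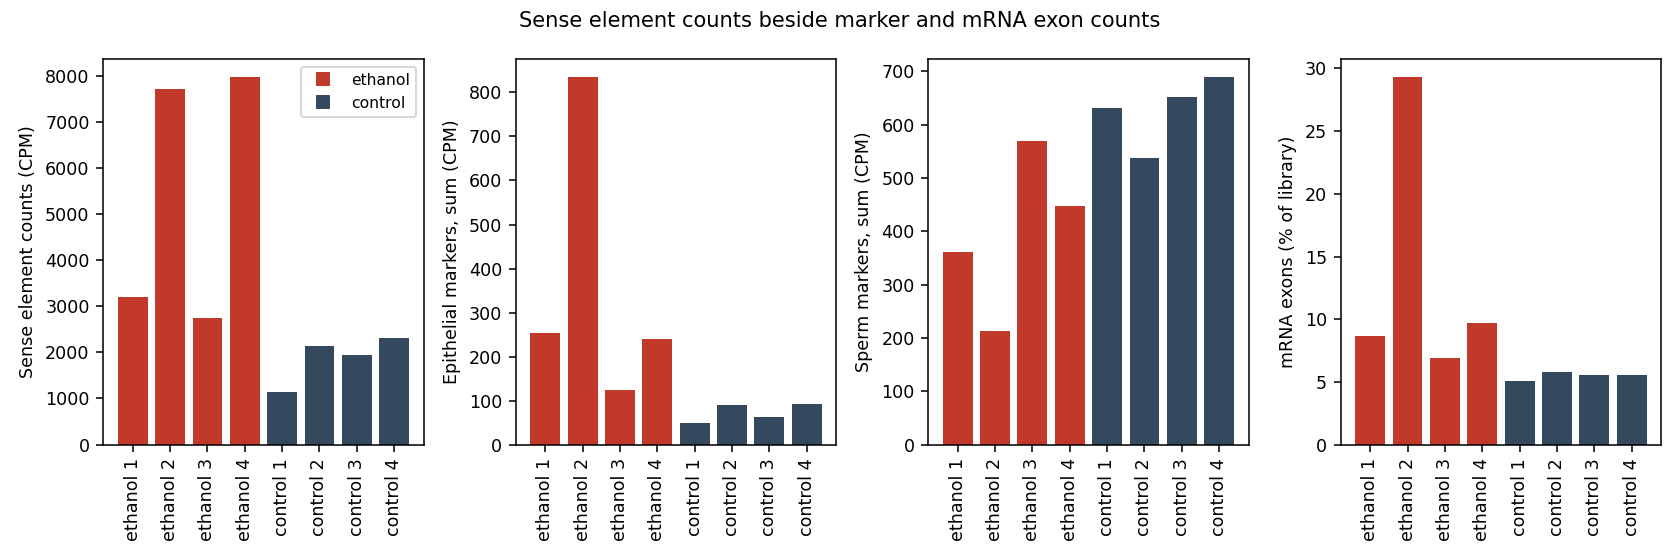
Sense CPM of all elements described, summed CPM of the general epithelial and of the sperm markers, and mRNA exons as percent of deposited counts, 1 bar per library, ethanol left of control. The sense total is highest in ethanol libraries 4 and 2, and the epithelial markers and the mRNA share are highest in ethanol library 2.

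The calls, over all features as well as among the elements, rested on every control library and on the scaling. Without any 1 control library 0 of the element sums were called, and over all features 1 to 3 were called higher in place of 1605. Without ethanol library 4, 1 element sum was called, beside 6.81% of all features called higher. Of single copies 0 were called without control library 1, 2 or 3 or ethanol library 4, and 1, which was lower, without control library 4, beside 1 to 3 higher calls over all features. Without ethanol library 2, 5 of 88 copies were called, all higher, beside 2.55% of all features called higher. Without ethanol library 3, 26 of 94 were called, 25 higher and 1 lower, beside 16.8% of all features higher and 5.1% lower. The counts of elements called did not follow the share over all features in every fit. Without ethanol library 2, 3 element sums were called beside 6.9%, and without ethanol library 4, 1 beside 6.81%. With counts scaled by the deposited totals, or with limma-voom, 0 of the sums and 0 of the silencing genes were called. Over all features these settings left 1 higher and 1 lower call, and 1 higher and 7 lower calls, of 13515. The log2 fold change of sense MuLV-int lay between 1.78 and 2.44 when each library was left out in turn, and that of RLTR4_Mm between 1.33 and 1.85.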

How the data were processed

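Sperm small RNA was measured in 4 ethanol and 4 control libraries, grouped by sample title. The values are counts that the authors deposited in a single table, with a row for each annotated feature and a column for each library; the aligner, genome build, use of molecular identifiers and placing of reads with several matches are not given in the sources used here. For that reason no coordinates or sequences are given. The table has 1078961 rows. Transposon rows were summed per name and strand and other rows per feature, which gave 45090 features, of which 13515 passed filterByExpr (minimum count 10). In a second fit transposon copies were kept single, with 13911 features tested. The fits were made in R 4.3.3 with edgeR 4.0.16 (TMM, robust quasi-likelihood fit on group alone, Benjamini-Hochberg over all features, threshold 0.05). Standard errors of log2 fold changes were obtained from the size of the change and the F statistic (change over the root of F). Strand ratios had 0.5 count added to both strands and were tested by 256 sign flips over libraries, in Python 3.11.15 with scipy 1.17.1. The fit was tested on simulated counts. No pair of libraries of a group agreed within sampling noise, with chi-square statistics per feature of at least 13.4.

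The elements, gene lists and markers were chosen with earlier results of these data known. Values in every library were given for sums past the threshold and the 6 sense and 4 antisense sums with the highest mean CPM, for up to 8 copies past the threshold with the smallest p, for the 4 sense and 2 antisense copies with the highest mean CPM, and in each gene list for up to 4 called genes, or with none called the 2 of highest mean CPM. Copies named outside this rule were singled out after their values were seen. Lists were read by gene symbol from mRNA exon rows, and symbols that the table does not hold were not replaced. Alternatives were DESeq2 1.42.0 size factors and its Wald test, library totals, limma-voom (limma 3.58.1), other count filters, transposons fitted alone, the largest copy of each name, the replicate number as a block, and each library left out. Identical copies were also counted once in the sums and strand ratios. Leaving out ethanol libraries 1 and 2, or 3 and 4, whose sample codes share a style, counting identical copies once in the fit of single copies, and leaving MMERGLN-int_copy269 out of the strand ratio were added after seeing the data.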

Additional observations from a re-analysis of the deposited data

Results flagged for a closer look

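In 9 of 50 groups of 4 libraries checked, among the sums and copies given by library, 1 library stood apart from the other 3 of its group (its gap to the nearest library passed Dixon's critical value). Chance flags about 1 in 20 groups, and several of these groups share counts. Antisense MMERGLN-int had 1197 CPM in ethanol library 2, and its copy MMERGLN-int_copy269 had 1242 CPM there in the fit of single copies. MuLV-int_copy203 had 610 CPM in control library 2, the only control library in which it led. RLTR4_MM-int_copy187 had 46.4 CPM in ethanol library 3 and 4.98 CPM in control library 2, each the highest of its group. RLTR4_Mm_copy128 had 2.05 CPM and RLTR4_Mm_copy194 had 3.60 CPM in control library 3, which are 8 and 14 counts. Antisense RLTR6-int_copy400, named for its mean level, had 1.21 CPM in ethanol library 1, the lowest of its group, and 12.98 CPM in control library 4, the highest of its group; its log2 fold change was -1.15 ± 0.63 and was not called.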

How the results depend on the processing

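No fold change that was called reversed in any alternative fit, and no strand ratio did with all copies kept. MMERGLN-int changed when MMERGLN-int_copy269 was left out. Its antisense means were then 15.8 CPM in ethanol and 24.6 CPM in control libraries. Its log2 sense to antisense ratio then averaged 0.07 in ethanol and -0.19 in control libraries. The number of sums called (4) was 0 with library totals, with limma-voom and with transposons fitted alone, where at most 1 feature in all was called higher, 2 with the largest copy of each name, and 0 to 6 when each library was left out. The 6, without ethanol library 3, were 5 higher and 1 lower. The number of single copies called (10) was 0 with DESeq2 size factors, library totals, limma-voom and transposons alone. The DESeq2 Wald test called 19, all higher (15.6% of all features higher). Without a count filter 50 of 2022 were called, 41 higher and 9 lower, beside 0.203% of all features higher and 0.0161% lower. Without ethanol libraries 1 and 2, 1 of 105 was called higher (0.0642%), and without ethanol libraries 3 and 4, 20 of 115 (14.96%). Leaving out each library gave 0 to 26 copies. The 26, without ethanol library 3, were 25 higher and 1 lower. Among receptors (0 called) the DESeq2 Wald test called 1 (17.2% of all features higher), and leaving out each library gave 0 to 1. Among restriction genes (0 called) the DESeq2 Wald test called 4 (17.2% of all features higher). The fit without ethanol libraries 3 and 4 also called 4 (16.8%), and leaving out each library gave 0 to 4. Among silencing genes (4 called) 2 were called with DESeq2 size factors (7.41% of all features higher) and 0 with library totals or limma-voom (0.0074% each). The fit without ethanol libraries 1 and 2 called 0 (3.75%), and leaving out each library gave 0 to 5. Among piRNA genes (0 called) 1 was called without ethanol libraries 3 and 4 (16.8%), and 0 to 1 when each library was left out. The causes were not tested. With library totals the median log2 fold change of all features moved to 0.24, and that of sense MuLV-int was 2.46. The log2 sense to antisense ratio of all names was 3.69 in control libraries alone, where the smallest p is 1 in 8, 5.35 with MMERGLN-int_copy269 left out, and 3.59 to 4.04 when each library was left out. Deviations from the group mean correlated at 0.34, 0.21, -0.13 and -0.02 between same-numbered ethanol and control libraries. With 4 libraries per group this cannot show whether the numbers pair the samples, and the labels do not say. With the replicate block 6 sums (4 higher, 2 lower), 20 copies, 4 restriction genes and 5 silencing genes were called. Of all features 18.5% were called higher in that fit of sums and 14.97% in that of copies. The low antisense counts (under 200 for MuLV-int over all libraries) limit what can be seen on that strand.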
